A study of Mus musculus with 6 samples.

Results

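The potassium and HCN channels that let auditory neurons keep time were examined as 8 genes: Kcna1, Kcna2 and Kcna6, which encode pore-forming Kv1 subunits, Kcnab1 and Kcnab2, which encode Kv1 accessory subunits, Kcnc1 and Kcnc2, which encode Kv3 subunits, and Hcn2. The genes were chosen with earlier results of these data known. The rule itself uses gene symbols alone, and every probe set that the platform annotation assigns to 1 of these symbols alone was taken. This gave 9 probe sets for 7 genes, of 22690 probe sets on the array, and Kcnc2 was not analysed here because the rule found no probe set for it. Tissue was the cochlear nucleus of mice at postnatal day 21, the brainstem nucleus in which the auditory nerve ends. Every mouse had received tetrodotoxin, which blocks voltage-gated sodium channels, in 1 cochlea from an osmotic pump for 24 h. The 3 ipsilateral samples were nuclei from the infused side and the 3 contralateral samples, which the labels call control, were nuclei from the other side. RNA of 10 to 12 mice was pooled for each sample, and each pool had 1 Affymetrix array. Strain and sex were not given in the sources used here. No untreated mice were measured, and either side may be the one that changed.

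Kv1 channels open close to the resting potential and pass a current that keeps neurons such as bushy and octopus cells from firing more than once per synaptic input. Kv3 channels open only at depolarized voltages and close fast, which shortens action potentials and permits high firing rates. HCN channels open on hyperpolarization, carry an inward current modulated by cyclic AMP, and speed the membrane of auditory brainstem neurons.

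Values are deposited log2 GCRMA signals per probe set, and a difference of 1 is a doubling of signal. Of the 9 probe sets, 8 had a mean over the 6 arrays above 4, the minimum for testing, and stood for 6 genes. Kcna6 was below it. A gene with 2 tested probe sets is represented by the brighter, called probe set A, and the other is probe set B. The arrays had medians between 5.86 and 5.91, and since arrays give no read depth their number limits the precision. Ipsilateral arrays differed in their choroid plexus markers. The mean of 10 markers of that tissue was 8.97, 4.93 and 5.17 on ipsilateral arrays 1, 2 and 3, against 7.99, 7.70 and 7.24 on contralateral arrays 1, 2 and 3. Of 14 genes chosen to mark the cochlear nucleus, 12 had a probe set and 10 were bright enough to test, 4 of them higher and 6 lower on the ipsilateral side with a median difference of -0.04. The smallest p-values among them belonged to Lhx9 (-0.16, SE 0.10), Necab2 (0.49, SE 0.39) and Hoxb2 (-0.15, SE 0.14). Slc17a6, the vesicular glutamate transporter of many brainstem neurons, averaged 11.19 on the ipsilateral and 11.33 on the contralateral side. Slc6a5, the glycine transporter of glycinergic neurons, and the hindbrain factor Hoxb3 were dim, with Slc6a5 at 2.83 and 3.22.

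Kcnab1 was lower on the infused side at both of its probe sets and in 3 of 3 replicates at each. Its signal was 1.28-fold lower at probe set A and 1.46-fold lower at probe set B. The other 5 tested genes had differences between 0.01 and 0.21 on the log2 scale, all with 95% intervals that included 0. No tested probe set of these genes passed after adjustment over all 15298 probe sets (limma, 0 of 8 with a Benjamini-Hochberg adjusted p under 0.05, adjusted p = 1.00 for each). The same holds for the whole array, where 0.00% of probe sets passed. With an unadjusted limma p below 0.05, 1 of the 6 genes was called, Kcnab1, against 364 of all tested probe sets (2.38%) in either direction and 1.22% in the lower direction. The median difference of the 6 genes was 0.04 and that of all tested probe sets -0.01, with 5 genes higher and 1 lower on the infused side. Of all 8754 named genes tested, 50.9% were lower on the infused side. The counts by direction here and in the lists below are to be read beside that share. Tissue was measured in bulk, so fewer cells of a type and less RNA per cell cannot be told apart.

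**Figure D1:**
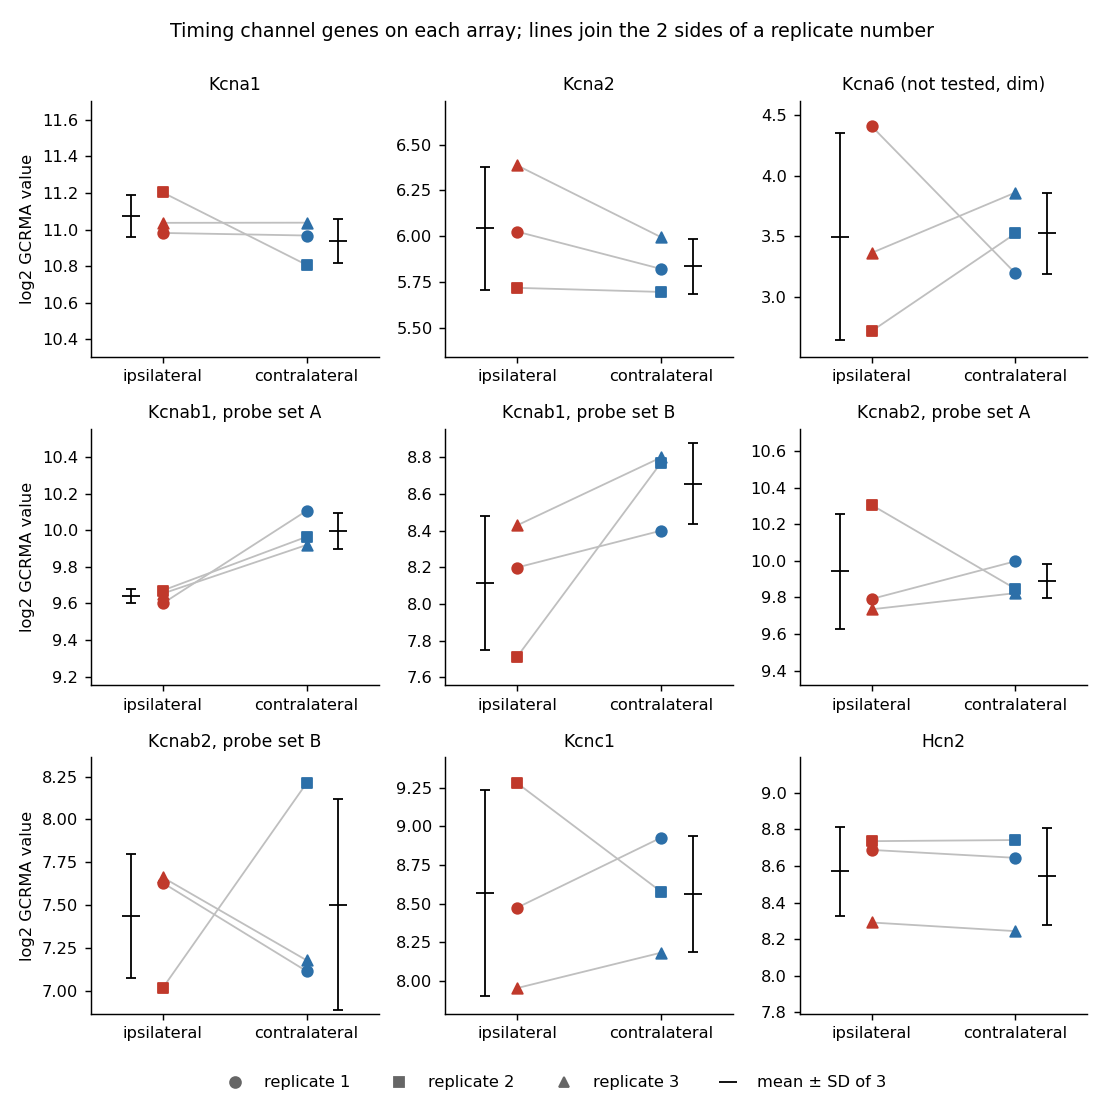
Log2 GCRMA value (vertical axis) of the 9 probe sets on each ipsilateral (red, left) and contralateral (blue, right) array, with marker shapes for replicates 1 to 3, grey lines joining the 2 sides of a replicate number and black bars for the mean ± SD of 3 arrays. The lines of both Kcnab1 probe sets run lower on the ipsilateral side in 3 of 3 replicates, while those of Kcnc1 and Kcnab2 cross.

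Kcnab1 encodes an accessory subunit that sits under the Kv1 pore and, through its amino-terminal domain, can give Kv1 channels fast inactivation. Probe set A measured 9.60, 9.67 and 9.65 on ipsilateral arrays 1, 2 and 3, against 10.11, 9.96 and 9.92 on contralateral arrays 1, 2 and 3. The sides did not overlap, and the ipsilateral values lay close together, with an SD of 0.04 against 0.10 on the contralateral side. Ipsilateral arrays were all below contralateral arrays for 3.44% of all tested probe sets. The difference was -0.36 (SE 0.09, limma 95% interval -0.57 to -0.14, unadjusted p = 0.00653, adjusted p = 1.00). An exact permutation test over the 6 arrays gave a two-sided p = 0.1, the smallest that 3 against 3 can give.

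Probe set B of Kcnab1 measured 8.20, 7.71 and 8.43 on ipsilateral arrays 1, 2 and 3, against 8.40, 8.77 and 8.80 on contralateral arrays 1, 2 and 3. Here the sides overlapped by a little, since ipsilateral array 3 lay just above contralateral array 1. The difference was -0.54 (SE 0.21, limma 95% interval -1.03 to -0.06, unadjusted p = 0.0334, adjusted p = 1.00), with an exact permutation p = 0.2 (two-sided). By replicate it was -0.20, -1.06 and -0.37, and at probe set A -0.51, -0.29 and -0.27, so the replicate with the largest difference was not the same at the 2 probe sets. A difference lower in 3 of 3 replicates was seen for 13.0% of all tested probe sets. The difference at probe set A kept its sign in each of 21 alternative analyses. Leaving out arrays could not turn that sign, since the sides did not overlap at this probe set. Alternatives that changed only the variance estimate or the probe sets tested left the difference at -0.36. The unadjusted limma p at probe set A reached 0.0804 without replicate 1 of both sides (-0.28). Without ipsilateral arrays 2 and 3, the arrays low in choroid plexus markers, the difference was -0.40. Fitted beside the choroid plexus marker mean, the difference was -0.37 at probe set A (unadjusted p = 0.0171, adjusted p = 1.00 by limma). At probe set B it was -0.51 in that fit (unadjusted p = 0.0826, adjusted p = 1.00 by limma), no longer under 0.05. At probe set B 12 of 20 alternatives gave an unadjusted p under 0.05.

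Kcnab2 encodes the paralogous accessory subunit, which helps to carry Kv1 channels to axons. Its probe set A measured 9.79, 10.31 and 9.74 on ipsilateral arrays 1, 2 and 3, against 10.00, 9.85 and 9.82 on contralateral arrays 1, 2 and 3. Ipsilateral array 2 was the highest of the 6 and the other 2 ipsilateral arrays were the lowest, so the sides overlapped. The difference was 0.05 (SE 0.17, limma 95% interval -0.34 to 0.45, unadjusted p = 0.751, adjusted p = 1.00), and without ipsilateral replicate 2 it was -0.13. Probe set B measured 7.63, 7.02 and 7.66 on ipsilateral arrays 1, 2 and 3, against 7.11, 8.21 and 7.18 on contralateral arrays 1, 2 and 3. The 2 probe sets thus went opposite ways in each replicate, at -0.21, 0.46 and -0.09 for probe set A and 0.52, -1.20 and 0.48 for probe set B. Probe set B differed by -0.07 (limma 95% interval -0.84 to 0.71). Without replicate 2 of both sides it differed by 0.50 (unadjusted p = 0.00869, adjusted p = 1.00 by limma).

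The accessory subunits were also compared within each array, where the log2 signal of 1 probe set minus that of another carries no meaning as a level but its change between the sides does. Kcnab1 minus Kcnab2, at their A probe sets, changed by -0.41 between ipsilateral and contralateral arrays, with the sides not overlapping (exact permutation p = 0.1, two-sided, adjusted over 3 comparisons 0.15). Kcnab1 minus Kcna1 changed by -0.49 (exact p = 0.1, adjusted 0.15), also without overlap. Kcnab1 minus Kcna2 changed by -0.56 (exact p = 0.2, adjusted 0.2), with overlap. No such comparison of 3 arrays with 3 can pass 0.05. All 3 comparisons use Kcnab1 probe set A, whose sides did not overlap, so they are no independent evidence of its difference. The B probe sets of Kcnab1 and Kcnab2, whose sides overlapped, were not compared in this way.

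**Figure D2:**
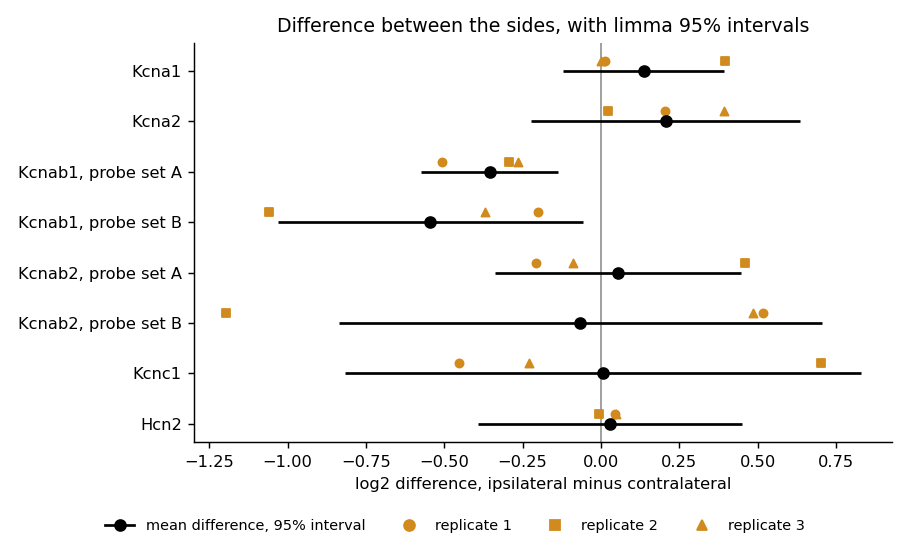
Log2 difference of ipsilateral minus contralateral signal (horizontal axis) for the 8 tested probe sets, with black points for the mean, bars for the limma 95% interval and orange marks for each replicate number. Only the intervals of the 2 Kcnab1 probe sets, -0.57 to -0.14 and -1.03 to -0.06, lie wholly below 0.

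The start regions of the accessory subunit genes are shown because Kcnab1 was the gene called at an unadjusted p and Kcnab2 is its paralog. RefSeq windows of GRCm38.p6, from 250 bases before to 50 bases after an annotated start, were found for 7 of the 8 genes, 14 windows in all, but not for Kcna1. Motifs of factors that neuronal activity regulates were searched on both strands: the CRE half-site TGACG, the full CRE TGACGTCA, the AP-1 site TGANTCA and the EGR site GCGNGGGCG. A full CRE contains half-sites, CGTCA is the half-site read on the opposite strand, and capitals mark matches. Among 32851 windows of the same length, 20.8% held the half-site, 1.79% the full CRE, 7.81% the AP-1 site and 5.55% the EGR site. The 3 Kcnab1 windows held none of these letters. Kcnab2 window 1 held 2 half-sites, with first bases at -175 and -164 from the start.
Kcnab1 window 1, chr3:64948962-64949261, plus strand: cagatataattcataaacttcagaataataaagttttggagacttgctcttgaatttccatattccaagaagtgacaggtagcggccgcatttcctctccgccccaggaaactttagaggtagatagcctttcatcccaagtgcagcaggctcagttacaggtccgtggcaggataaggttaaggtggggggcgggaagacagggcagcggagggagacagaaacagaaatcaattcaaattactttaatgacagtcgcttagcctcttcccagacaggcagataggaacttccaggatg
Kcnab1 window 2, chr3:65108764-65109063, plus strand: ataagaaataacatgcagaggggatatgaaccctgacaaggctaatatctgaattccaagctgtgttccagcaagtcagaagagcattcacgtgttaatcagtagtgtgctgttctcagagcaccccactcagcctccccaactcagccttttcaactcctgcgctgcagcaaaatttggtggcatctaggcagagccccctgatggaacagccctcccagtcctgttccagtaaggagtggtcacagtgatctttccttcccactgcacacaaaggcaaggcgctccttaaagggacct
Kcnab1 window 3, chr3:65187853-65188152, plus strand: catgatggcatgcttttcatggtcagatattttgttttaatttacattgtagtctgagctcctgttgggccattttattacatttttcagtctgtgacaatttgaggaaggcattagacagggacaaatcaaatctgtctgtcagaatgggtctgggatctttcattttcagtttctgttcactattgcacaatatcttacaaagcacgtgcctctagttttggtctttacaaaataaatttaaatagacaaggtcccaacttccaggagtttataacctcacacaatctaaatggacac
Kcnab2 window 1, chr4:152477500-152477799, minus strand: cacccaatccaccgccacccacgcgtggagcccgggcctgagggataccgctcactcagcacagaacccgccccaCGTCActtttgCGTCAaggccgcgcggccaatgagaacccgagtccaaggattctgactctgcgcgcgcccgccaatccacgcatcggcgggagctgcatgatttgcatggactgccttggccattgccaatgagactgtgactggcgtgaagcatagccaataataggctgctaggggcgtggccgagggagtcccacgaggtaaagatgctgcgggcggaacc

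The base composition of these windows differed, with 46.7%, 50.3% and 36.7% G and C in Kcnab1 windows 1, 2 and 3 and 62.7% in Kcnab2 window 1. A match is a description of letters, and no binding was measured here. The other 2 Kcnab2 windows held no match. Single half-sites stood in the windows of Kcna6 and Kcnc1, and an EGR site stood in that of Hcn2.

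Of the pore-forming Kv1 genes, Kcna1 lay above 95.3% to 96.4% of all probe sets on each array. Brightness also depends on the probes, so no order of abundance between genes follows from it. Kcna1 encodes a subunit of the low-voltage-activated current of auditory neurons. It measured 10.98, 11.20 and 11.04 on ipsilateral arrays 1, 2 and 3, against 10.97, 10.81 and 11.04 on contralateral arrays 1, 2 and 3. Replicate 2 alone set the sides apart, with 0.40 against 0.01 and -0.00 in replicates 1 and 3. The difference was 0.14 (SE 0.11, limma 95% interval -0.12 to 0.39, unadjusted p = 0.248, adjusted p = 1.00), so a 1.31-fold higher or a 0.920-fold signal lies at the ends of the interval.

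Kcna2 encodes the subunit that joins Kcna1 products in axonal and juxtaparanodal Kv1 channels. It measured 6.02, 5.72 and 6.39 on ipsilateral arrays 1, 2 and 3, against 5.82, 5.70 and 5.99 on contralateral arrays 1, 2 and 3. The infused side was higher in 3 of 3 replicates, as for 10.7% of all tested probe sets, by 0.20, 0.02 and 0.39, and the sides overlapped. The difference was 0.21 (SE 0.18, limma 95% interval -0.22 to 0.63, unadjusted p = 0.291, adjusted p = 1.00). Kcna2 lay near the middle of the array, above 47.8% to 55.5% of probe sets.

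Kcna6, another Kv1 pore-forming gene, measured 4.41, 2.71 and 3.36 on ipsilateral arrays 1, 2 and 3, against 3.19, 3.52 and 3.86 on contralateral arrays 1, 2 and 3. Of the 6 arrays 1 was above 4, and the sides overlapped. Its means were 3.50 and 3.53, near the floor to which GCRMA shrinks dim probes, and it was not tested.

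Kcnc1, the Kv3 gene measured here, encodes a high-threshold delayed rectifier of fast-firing neurons. It measured 8.47, 9.28 and 7.95 on ipsilateral arrays 1, 2 and 3, against 8.93, 8.58 and 8.18 on contralateral arrays 1, 2 and 3. The arrays of each side spread widely, with an SD of 0.67 on the ipsilateral and 0.37 on the contralateral side. The difference was 0.01 (SE 0.35, limma 95% interval -0.82 to 0.83, unadjusted p = 0.985, adjusted p = 1.00), an interval from a 0.568-fold to a 1.78-fold signal. By replicate it was -0.45, 0.70 and -0.23, so the near-zero mean is an average of differences in both directions, and without ipsilateral replicate 2 it was -0.35. The RefSeq window of Kcnc1 is shown for its half-site, with its first base at -236 from the start.
Kcnc1 window, chr7:46396218-46396517, plus strand: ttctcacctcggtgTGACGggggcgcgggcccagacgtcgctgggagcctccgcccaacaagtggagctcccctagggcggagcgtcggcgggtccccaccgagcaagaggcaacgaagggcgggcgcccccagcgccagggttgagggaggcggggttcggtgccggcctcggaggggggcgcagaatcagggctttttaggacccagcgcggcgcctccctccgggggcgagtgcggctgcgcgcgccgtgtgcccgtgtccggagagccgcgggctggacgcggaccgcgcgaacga

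Hcn2 encodes a pore-forming HCN subunit that responds to cyclic AMP. It measured 8.69, 8.74 and 8.29 on ipsilateral arrays 1, 2 and 3, against 8.64, 8.74 and 8.24 on contralateral arrays 1, 2 and 3. Within each replicate number the 2 sides lay within 0.05 of each other, which held for no other gene of the set. The difference was 0.03 (SE 0.18, limma 95% interval -0.39 to 0.45, unadjusted p = 0.878, adjusted p = 1.00).

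For Kcnc1, Hcn2, Kcna2 and Kcnab2 the range over replicate numbers was wider than the difference between the sides. The range spans more means, each of fewer arrays, so it tends to be the wider even where neither has an effect. Averaged over the sides, Kcnc1 measured 8.70, 8.93 and 8.07 in replicates 1, 2 and 3, a range of 0.86 that 2.09% of all tested probe sets reached. Hcn2 measured 8.67, 8.74 and 8.27, a range of 0.47 reached by 14.2%. Both genes were lowest in replicate 3 on each side. Kcna2 measured 5.92, 5.71 and 6.19, a range of 0.48 reached by 13.3%, and was highest in replicate 3 on each side. For Kcnab2 the range was 0.30 at probe set A, reached by 34.9%, and 0.24 at probe set B, reached by 45.9%. Kcna1 had a range of 0.06, reached by 92.9%. Kcnab1 had a range of 0.07 at probe set A, reached by 92.0%, and of 0.37 at probe set B, reached by 23.6%. The mean of 13 neuronal markers was also highest in replicate 3, at 10.64, 10.66 and 10.98 on ipsilateral arrays 1, 2 and 3. On contralateral arrays 1, 2 and 3 it was 10.66, 10.71 and 10.89. Among these markers Map2 spread widely, at 6.82, 6.19 and 7.90 on ipsilateral arrays 1, 2 and 3. Tubb3 went the other way and was lowest in replicate 3 on each side, at 10.19 and 10.24. The means of cochlear nucleus, cerebellar granule cell, and Purkinje and cartwheel cell markers were also highest in replicate 3 on each side. The part of any of these cells in the ranges was not tested.

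**Figure D3:**
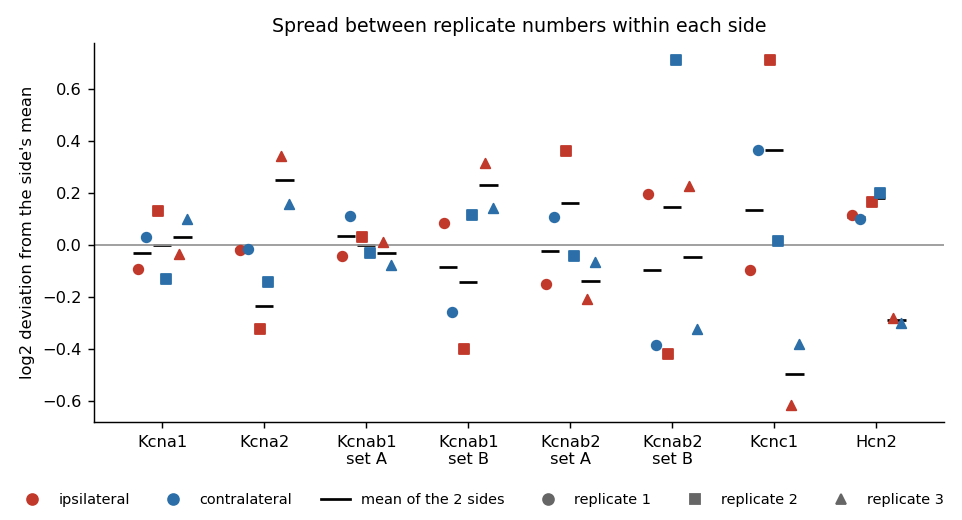
Deviation of each array from the mean of its own side (vertical axis, log2) for the 8 tested probe sets, with red for ipsilateral and blue for contralateral arrays, shapes for replicate numbers and black bars for the mean of the 2 sides. Kcnc1 and Hcn2 are lowest in replicate 3 on both sides, and Kcna2 is highest there.

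The genes most alike in pattern were those with the largest Pearson r to a gene's representative probe set over the 6 arrays, among 8753 other named genes, and this is a description. For Kcnab1 they were Rem2 (r = 0.994), a small GTPase that regulates calcium channels, and Rorb (r = 0.990), an orphan nuclear receptor. Rem2 measured 6.10, 6.19 and 6.13 on ipsilateral arrays 1, 2 and 3, against 6.89, 6.70 and 6.53 on contralateral arrays 1, 2 and 3. Rorb differed by -0.32. For Kcnab2 they were Apbb1ip (0.995) and Agfg2 (0.990), for Kcna1 Bak1 (0.985) and Rrbp1 (0.983), and for Kcna2 Rpe (0.985) and Pgm1 (0.980). For Kcnc1 they were Dhx36 (0.993) and Lrwd1 (0.985), and for Hcn2 Ppib (0.996) and Dvl2 (0.993). Each named r is among the largest picked from 8753 genes and comes from 6 arrays only. An r of 0.95 was reached by 16 of these genes with Kcnab1 and by 95 with Hcn2.

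Genes related to these channels were read from lists. Of 11 other Kv1, Kv3 and HCN genes 7 had a probe set and 5 were tested, and 1 was higher and 4 lower ipsilaterally, at a median of -0.09 with 0 of 5 at an unadjusted limma p under 0.05. Kcnc4, another Kv3 gene, differed by 0.16 (SE 0.12), Hcn3 by -0.07 (SE 0.09) and Kcna7 by -0.13 (SE 0.18). Kcna3 and Kcna4 were dim, with ipsilateral and contralateral means of 3.59 and 3.80 for Kcna3. Kcnab3, the third accessory subunit gene, measured 6.73, 6.62 and 7.17 on ipsilateral arrays 1, 2 and 3, against 6.57, 7.29 and 7.01 on contralateral arrays 1, 2 and 3. It overlapped between the sides, with a difference of -0.12.

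Genes listed as juxtaparanode and node partners of Kv1 and Kv3 channels in myelinated axons gave small differences. Of 13 tested genes of 16, 10 were higher and 3 lower, with differences from -0.17 to 0.12, a median of 0.02 and 0 at an unadjusted limma p under 0.05. Adam23, a receptor of the LGI proteins, differed by -0.17 (SE 0.14), the scaffold gene Dlg1 by 0.11 (SE 0.11) and the node anchor Ank3 by 0.07 (SE 0.09). Cntnap2, which clusters Kv1 channels at juxtaparanodes, differed by 0.04 and its partner gene Cntn2 was dim.

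Among genes for proteins that modulate these channels, 9 of 12 tested were higher and 3 lower, with a median of 0.04 and 0 at an unadjusted limma p under 0.05. Creb1, the cyclic AMP response factor, had the largest difference of the list. It measured 4.06, 3.62 and 4.28 on ipsilateral arrays 1, 2 and 3, against 4.16, 4.43 and 4.87 on contralateral arrays 1, 2 and 3. It was lower in 3 of 3 replicates by a mean of -0.50 (SE 0.23, unadjusted p = 0.0661, adjusted p = 1.00 by limma), at values near the minimum for testing. Pex5l, which encodes the HCN partner TRIP8b, differed by 0.12 (SE 0.13) and the scaffold kinase Cask by 0.11 (SE 0.12).

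Of 44 other potassium channel genes 28 had a probe set and 21 were tested, 12 higher and 9 lower, with a median of 0.01 and 0 at an unadjusted limma p under 0.05. The smallest p-values belonged to Kcnj9 (-0.22, SE 0.14) and Kcnj6 (0.25, SE 0.16), both G protein-gated inward rectifiers, and to the leak channel gene Kcnk1 (-0.15, SE 0.10). Of 5 activity genes on the same arrays, all 5 had lower means on the infused side, at a median of -0.83, and limma gave 2 of 5 an unadjusted p below 0.05. Nr4a1 differed by -0.89 (SE 0.25) and Junb by -0.83 (SE 0.44), while Arc differed by -0.21 (SE 0.18) and was lower in 2 of 3 replicates. Junb averaged 3.92 on the ipsilateral and 4.75 on the contralateral side, near the minimum for testing. Fos, which neurons induce when they fire, measured 7.51, 7.47 and 7.79 on ipsilateral arrays 1, 2 and 3, against 9.67, 9.81 and 8.82 on contralateral arrays 1, 2 and 3. This list is known from earlier results of these data and is no independent evidence of its direction.

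**Figure D4:**
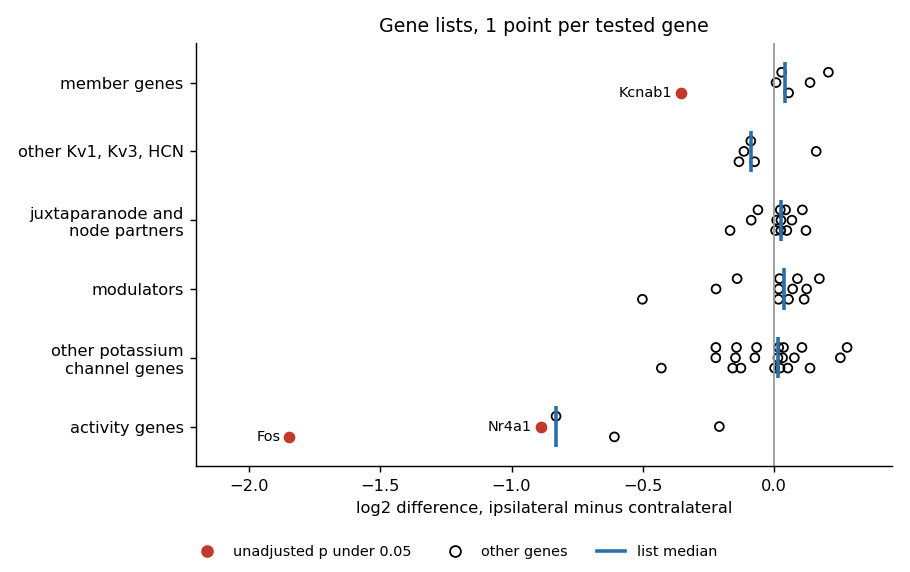
Log2 difference of ipsilateral minus contralateral signal (horizontal axis) for each tested gene of 6 lists, with red points for an unadjusted limma p under 0.05, open points for other genes and blue bars for list medians. Kcnab1 at -0.36 stands apart from the other 5 genes of its list, and the 4 lists of genes related to these channels have medians of -0.09, 0.02, 0.04 and 0.01.

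Markers of other cells that the dissection could hold were also read. Of 6 genes that mark cerebellar Purkinje cells and the cartwheel cells of the dorsal cochlear nucleus, 4 were tested and 4 had lower ipsilateral means, at a median of -0.30. Their mean was 8.22, 8.36 and 8.75 on ipsilateral arrays 1, 2 and 3, against 8.60, 8.55 and 9.20 on contralateral arrays 1, 2 and 3, so it was lower in 3 of 3 replicates while the sides overlapped. Calb1, the calcium buffer calbindin, had 9.70, 9.81 and 9.85 on ipsilateral arrays 1, 2 and 3 and 10.14, 10.23 and 10.44 on contralateral arrays 1, 2 and 3. Pcp2, a marker of the same list, was lower in 2 of 3 replicates. The part of these cells in the Kcnab1 difference was not tested.

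Cerebellar granule cell markers were higher for 5 of 7 tested genes with a median of 0.07, and neuronal markers were higher for 6 of 13 with a median of -0.04. Myelin markers, which share their axons with Kv1 channels, were higher for 9 of 9 with a median of 0.13, and astrocyte markers for 9 of 10 with a median of 0.05. Microglial markers were higher for 8 of 9 with a median of 0.17 and 3 at an unadjusted limma p under 0.05, and endothelial markers for 3 of 8 with a median of -0.05. Choroid plexus markers were lower for 10 of 10, at a median of -1.24, and were low on ipsilateral arrays 2 and 3 only.

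**Figure D5:**
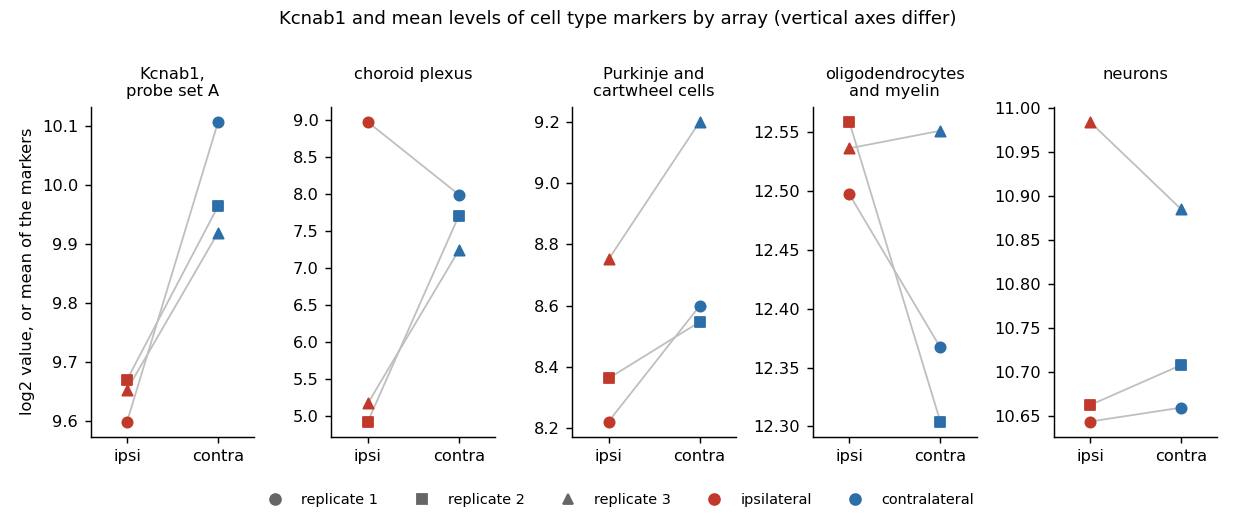
Log2 value of Kcnab1 probe set A and mean log2 value of the tested markers of 4 cell types (vertical axes, which differ between panels) on ipsilateral (red, left) and contralateral (blue, right) arrays, with shapes for replicate numbers and grey lines joining the 2 sides. The mean of the Purkinje and cartwheel cell markers is lower on the ipsilateral side in 3 of 3 replicates, while choroid plexus markers are low on ipsilateral arrays 2 and 3.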

How the data were processed

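Each of 6 pools of cochlear nucleus RNA was hybridised to 1 array. The deposited values are log2 GCRMA expression per probe set, made by the authors, per the submitters' processing notes, which name GCRMA without a version. The range of the values, 1.40 to 16.01, gave the scale. GCRMA shrinks dim probes to a floor, and normalization between arrays removes changes common to most genes.

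Sides and replicate numbers were taken from each sample's description. Genes were named from the platform annotation, by probe sets with 1 symbol, and 7 of 7 gene identifiers matched RefSeq (GRCm38.p6). The 64 control probe sets and 7328 with a mean at or below 4 were left out. The test was limma 3.58.1 in R 4.3.3, ipsilateral minus contralateral over 6 arrays, Benjamini-Hochberg adjusted over 15298 probe sets at a threshold of 0.05, with no further normalization. Single values also had an exact permutation test (scipy 1.17.1). The fit was tested on simulated data with differences larger than those between the sides for the genes of interest. It therefore does not show whether differences of their size would be found. The genes of interest and all lists were chosen with earlier results of these data known. All genes of interest were named, and from each list of related or activity genes up to 3 genes of smallest p and counts by direction; Cntnap2, Kcnab3, Cntn2, Kcna3, Kcna4, Arc and the cell type markers named were added after their values were seen. For each gene the 2 most alike in pattern were named.

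The 2 sides share replicate numbers, and the labels do not state that same-numbered pools came from the same mice; differences by replicate number are descriptions. The replicate block and the other alternatives are given in the closing section. Replicates were described as biological.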

Additional observations from a re-analysis of the deposited data

How the results depend on the processing

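Over 21 alternatives the count of the 6 genes with an unadjusted limma p under 0.05 was 1, Kcnab1, in all but 2: it was 0 without ipsilateral arrays 2 and 3 and 0 without replicate 1 of both sides, and with arrays or replicate numbers left out it ranged from 0 to 1. The count past the adjusted threshold was 0 in each alternative and at a threshold of 0.1, with a range of 0 to 0 when arrays were left out. Over the whole array the adjusted count of 0 became 5 without ipsilateral replicate 1, and it became 2 when replicate 1 of both sides was left out. At an unadjusted p under 0.05, limma gave 364 of all probe sets and the plain equal-variance test 423. That test was the 1 alternative whose p did not come from limma. It gave an unadjusted p of 0.00415 at Kcnab1 probe set A and 0.0931 at probe set B. Deviations of same-numbered arrays from their side means correlated at 0.09, 0.04 and 0.57 for numbers 1, 2 and 3, and those of differently numbered arrays at -0.37 to 0.30, so that number 3 alone correlated best with itself. The numbers were therefore not taken as pairs. With the replicate number as a block the Kcnab1 difference of -0.36 had an unadjusted limma p of 0.0142, no call among the genes changed, and 569 probe sets had an unadjusted p under 0.05. That count was 571 without ipsilateral arrays 2 and 3. The Kcnab1 difference ranged from -0.45 to -0.28 over 21 alternatives and probe set B from -0.72 to -0.29 over 20. Kcna1 and Kcna2 kept their sign, at 0.01 to 0.20 and 0.03 to 0.37. The median of the 6 genes ranged from -0.09 to 0.19. With choroid plexus markers as a covariate the sign turned for Kcnab2 (-0.0192), its probe set B (0.042) and Kcnc1 (-0.0242), and without ipsilateral arrays 2 and 3 for Kcnab2 (-0.0977), its probe set B (0.129) and Kcnc1 (-0.0885). With the mean of all probe sets Kcnab2 was -0.0054. When arrays or replicate numbers were left out in turn, Kcnab2 ranged from -0.147 to 0.185, its probe set B from -0.356 to 0.50, Kcnc1 from -0.349 to 0.315 and Hcn2 from -0.12 to 0.17. Single arrays alone gave -0.126 to 0.159 for Kcnab2 and -0.259 to 0.290 for its probe set B, and without replicate 2 of both sides Kcnab2 was -0.147, its probe set B 0.50 and Kcnc1 -0.341. The signs of these 4 probe sets thus turned in at least 1 such fit, and the cause was not tested. Fits without 2 ipsilateral arrays assume that the lone one varies like the other side. A mean above 6 left out Kcna2, and no filter let Kcna6 be tested, with no call.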
